A study of Rattus norvegicus with 4 samples.

Results

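Matrix metalloproteinases (Mmp genes) and their tissue inhibitors (Timp genes) were described in the exposed rat alveolar macrophage line NR8383, as 10 genes of 16579 that had a probe with a gene name. Their members were 7 proteases (Mmp2, Mmp8, Mmp9, Mmp12, Mmp13, Mmp14 and Mmp19) and 3 inhibitors (Timp1, Timp2 and Timp3). They were chosen by symbol, and their probes were found through the accession printed with each probe. This gave 12 probes of 45598, since Mmp2 and Mmp14 had a pair of probes each and the other genes 1.

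Cells of NR8383, a line that grew out of the lung lavage of a normal rat, had been passaged 20 times and grew partly attached and partly floating. All 4 cultures formed 1 group, exposed for 4 h to the titanium dioxide material NRCWE001 at a particle surface of 3 cm2 per cm2. They are biological replicates per the series' design text, and each was measured on its own 1-colour array. Unexposed cells were not analysed here, so the levels carry no information on a response to the particles. A line grown alone lacks the epithelium and matrix that surround macrophages in the lung.

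Matrix metalloproteinases are zinc enzymes that are made as inactive proenzymes and cut collagens, elastin and other proteins outside the cell once the propeptide is removed. Timp proteins bind the active site of these enzymes and block it, and Timp2 also takes part in activating proMmp2 on the membrane enzyme Mmp14. In the lung, alveolar macrophages are a known source of the elastase Mmp12 and of the gelatinase Mmp9, and neutrophils store Mmp8 and Mmp9 in granules.

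Of the 10 genes, 5 were well above background on all 4 arrays: the proteases Mmp9, Mmp12 and Mmp19 and the inhibitors Timp1 and Timp2. Mmp14 passed on 2 arrays, and Mmp2, Mmp8, Mmp13 and Timp3 passed on none. A probe passed on an array when the scanner software marked over 0.5 of its spots as well above background. Of all 16579 named genes, 7570 passed on all 4 arrays (45.7%), so the 5 of 10 members lay close to the share of genes in general. In RNA of whole cultures, fewer cells with a transcript and less of it per cell cannot be told apart.

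**Figure D1:**
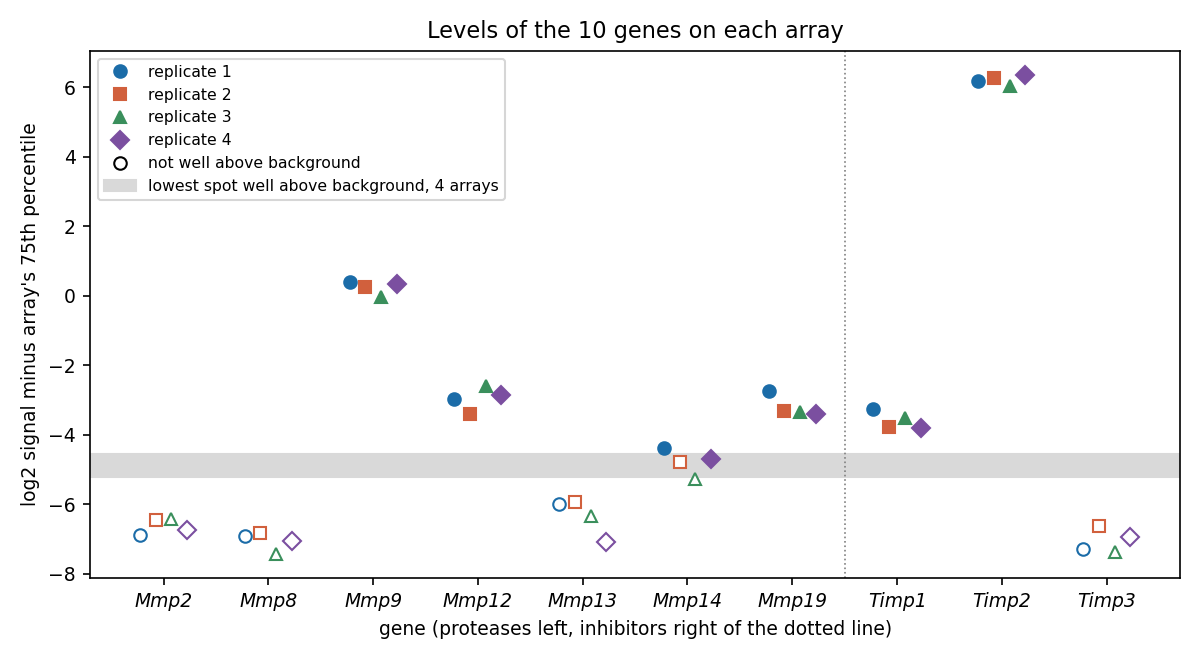
Level of each of the 10 genes on each array (y axis, log2 signal relative to the 75th percentile of that array), with 1 marker per replicate, filled where the probe was well above background. The grey band spans the lowest level of any spot called well above background on the 4 arrays. Mmp9, Mmp12, Mmp19, Timp1 and Timp2 lie above the band on every array, Mmp14 lies in or close to it, and Mmp2, Mmp8, Mmp13 and Timp3 lie below it. Heights of different genes are of different probes and do not rank the transcripts.

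Levels are given as log2 of the ratio of the processed signal to the 75th percentile of the same array, so 0 marks that percentile. It lay at 480, 388, 614 and 466 intensity units on replicates 1 to 4, over local backgrounds of 36 to 41 units. A level holds for its own probe, and levels of different genes were not set against each other.

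The window before the gene start is shown for a detected protease (Mmp12), a protease that was not detected (Mmp13) and a detected inhibitor (Timp2). The sequences are RefSeq's, on build GRCr8, run 5′ to 3′ on the gene's strand over the 250 bases before the start, and were matched by symbol. Of the 10 members, 6 had such an entry. Capitals mark the letters TGANTCA, the core bound by AP-1 factors, which reads the same on both strands, and TATAAA, the core of the TATA box, searched on both strands. The Mmp12 window is chr8:12866402-12866651 on the plus strand, that of Mmp13 is chr8:12782579-12782828 on the plus strand and that of Timp2 is chr10:104089215-104089464 on the minus strand.
Mmp12: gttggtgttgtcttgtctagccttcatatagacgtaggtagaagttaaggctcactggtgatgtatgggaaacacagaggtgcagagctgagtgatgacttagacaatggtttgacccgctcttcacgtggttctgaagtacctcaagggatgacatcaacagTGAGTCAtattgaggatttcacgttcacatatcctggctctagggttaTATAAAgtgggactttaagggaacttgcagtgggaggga
Mmp13: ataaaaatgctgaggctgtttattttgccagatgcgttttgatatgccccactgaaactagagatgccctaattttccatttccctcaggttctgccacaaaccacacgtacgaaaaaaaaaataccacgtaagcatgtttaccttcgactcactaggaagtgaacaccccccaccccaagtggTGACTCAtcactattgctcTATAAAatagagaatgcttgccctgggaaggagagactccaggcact
Timp2: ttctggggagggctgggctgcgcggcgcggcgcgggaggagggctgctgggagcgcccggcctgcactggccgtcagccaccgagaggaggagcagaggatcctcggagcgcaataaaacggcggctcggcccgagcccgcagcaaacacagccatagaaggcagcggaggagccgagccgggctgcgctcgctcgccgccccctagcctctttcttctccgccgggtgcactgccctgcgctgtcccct
Both protease windows shown hold 1 AP-1 core and 1 TATA core. The window of the protease Mmp8, which is not shown, holds 1 TATA core and 0 AP-1 cores. The AP-1 core starts 87 bases before the start in Mmp12 and 66 bases in Mmp13. Among 33469 windows of the same length, 6.34% held the AP-1 core and 12.9% the TATA core. The Timp2 window has neither set of letters. G and C made up 45.6% of the Mmp12, 44.4% of the Mmp13 and 48.0% of the Mmp8 window, and 72% of the Timp2, 61.2% of the Timp1 and 69.6% of the Timp3 window. The ETS core AGGAAG, also searched on both strands and held by 29.5% of windows, occurred 1 time each in the Mmp13 and Mmp8 windows, 2 times in that of Timp1 and in none of the other 3. These are matches of letters, and binding was not measured.

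Mmp9, the gelatinase that degrades denatured collagen and basement membrane collagen, was detected on every array by its single spot. Its levels were 0.39, 0.25, -0.05 and 0.33 on replicates 1 to 4. The mean was 0.23 ± 0.19 (SD, n = 4), with replicate 3 low and the other three within a narrow span. The processed signal ran from 463 to 629 units, far above the local background. The prior SD at its level was 0.16, and without replicate 3 the SD of Mmp9 was 0.07.

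Mmp12, macrophage elastase, was detected on every array at a signal where the prior SD was 0.25. Its levels were -2.97, -3.39, -2.61 and -2.85 on replicates 1 to 4, so replicate 2 was the low and replicate 3 the high array. The mean was -2.95 ± 0.33 (SD, n = 4), and the processed signal of its 1 spot, in column 159, ran from 37.0 to 100.5 units. The lowest and highest arrays lay 1.72-fold apart. With background correction by normexp the SD of Mmp12 was 0.09 and its level -2.11. This correction used the median spot signals, which carry no spatial detrending, and an offset of 50. An offset narrows log2 differences between dim spots, so this SD cannot be set against that of the processed signals. Without replicate 2 the SD of the processed signals was 0.18.

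Mmp19, which also cuts basement membrane proteins, lay at -2.74, -3.31, -3.34 and -3.41 on replicates 1 to 4. The mean was -3.20 ± 0.31 (SD, n = 4). Replicate 1 was the high array and the other three were close together, so without replicate 1 the level was -3.35 ± 0.05 (SD, n = 3). Its only spot was in column 54. On the replicate 1 array the repeated spots of Timp2 and Mmp2, described further on, read higher in columns 1 to 72 than beyond. Those of Timp1 and Mmp14 read lower, and the part of position in the Mmp19 value was not tested.

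Mmp14, the membrane enzyme that activates proMmp2, lay at the edge of detection. Its brighter probe had levels of -4.40, -4.78, -5.29 and -4.70 on replicates 1 to 4 and passed on replicates 1 and 4. The other probe had levels of -4.95 to -5.38 and passed on replicate 1. Both probes were printed on 10 spots per array, and 26 of 77 spots used were well above background. By array, these were 13 of 20 spots on replicate 1, 3 of 18 on replicate 2, 2 of 19 on replicate 3 and 8 of 20 on replicate 4. With the more lenient flag of the scanner software, for a signal that is positive and significant, Mmp14 passed on all 4 arrays, and with it 6 of 10 members and 55% of all genes.

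The other 3 proteases passed on no array. Mmp2, the second gelatinase, had 0 of 43 spots well above background over its probes, and 1 more spot, on replicate 4, carried the flag but was left out as an outlier. By the lenient flag for a positive and significant signal, 3, 3, 10 and 4 spots of its repeated probe passed on replicates 1 to 4. That probe lay at -6.88, -6.45, -6.43 and -6.74 on replicates 1 to 4. Mmp8, the collagenase of neutrophil granules, lay between -7.43 and -6.83. Mmp13, a collagenase of bone and cartilage, lay between -7.08 and -5.95. By the lenient flag its spot passed on replicates 1, 2 and 3, and that of Mmp8 on none. The processed signals of Mmp8 and Mmp13 were 3.41 to 7.56 units.

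Among the inhibitors, Timp2 had a processed signal of 29634 to 40263 units, and no spot on any array was saturated. Its levels were 6.18, 6.25, 6.03 and 6.36 on replicates 1 to 4, with a mean of 6.21 ± 0.14 (SD, n = 4). By level, replicate 3 was low and replicate 4 high, a 1.25-fold span. The processed signal before scaling was highest on replicate 3, and after quantile normalization the SD was 0.05. The probe was printed on 10 spots per array and all 39 spots used were well above background.

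Timp1, an inhibitor of most secreted metalloproteinases that is often induced in inflammation, lay at -3.27, -3.78, -3.51 and -3.81 on replicates 1 to 4. The mean was -3.59 ± 0.26 (SD, n = 4), with replicates 1 and 3 above replicates 2 and 4. All 38 spots used were well above background. Mean processed signals ran from 28.6 to 54.2 units. With normexp and the same offset the SD was 0.16 and the level -2.34.

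Timp3, the inhibitor that stays bound to the matrix, lay at -7.28, -6.64, -7.37 and -6.94 on replicates 1 to 4 and was not well above background on any of them. Its processed signal was 3.09 to 3.90 units, and by the lenient flag its spot passed on replicate 2 alone.

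**Figure D2:**
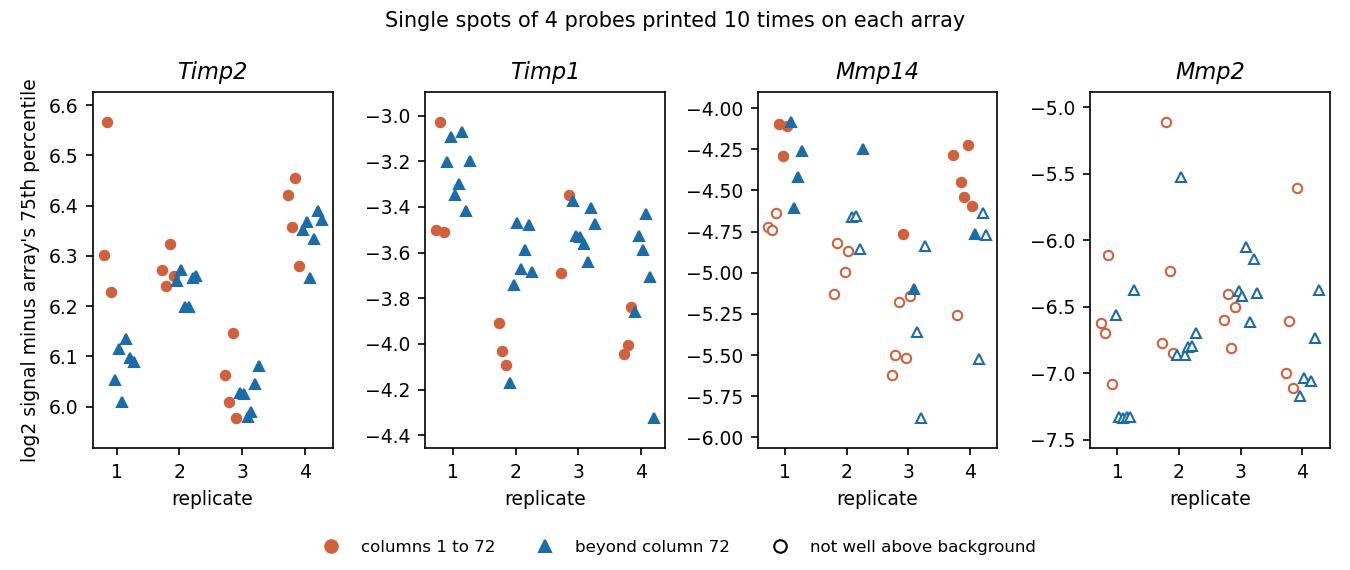
Single spots of 4 probes printed 10 times on each array (Timp2, Timp1, the brighter Mmp14 probe and the repeated Mmp2 probe). The other Mmp14 probe, also printed 10 times, is not drawn. Replicate is on the x axis and log2 signal relative to the array's 75th percentile on the y axis, whose range differs between panels. Orange circles are spots in columns 1 to 72, blue triangles spots beyond, open symbols spots not well above background, and spots left out as outliers are not drawn. On replicate 1 the Timp2 spots of columns 1 to 72 lie above the rest, and the Mmp14 spots are filled and open on the same array.

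Repeated spots show how much of a difference between arrays 1 spot can carry. For Timp2 the SD between spots was 0.17 on replicate 1 and 0.04, 0.05 and 0.06 on replicates 2, 3 and 4. On replicate 1 the 3 Timp2 spots used in columns 1 to 72 averaged 6.37 and the spots beyond column 72 averaged 6.08. On the other arrays these averages were 6.27 and 6.24, 6.05 and 6.02, and 6.38 and 6.34. Replicate 1 was thus the array on which the Timp2 spots differed by column, while on the others the averages differed by less than the spot SD. The repeated Mmp2 probe, not detected, also read higher in columns 1 to 72 on replicate 1, at -6.63 against -7.04. For Timp1 on replicate 1 the order was the other way, with -3.35 in columns 1 to 72 and -3.23 beyond. The Mmp14 probes on that array also read lower in columns 1 to 72, at -4.43 against -4.34 and at -5.06 against -4.69. On replicates 2 and 4 the Timp1 averages lay further apart than on replicate 1, at -4.01 against -3.69 and -3.96 against -3.74. The brighter Mmp14 probe read -4.95 against -4.60 on replicate 2 and -4.56 against -4.92 on replicate 4. On replicate 3 the averages were -3.52 and -3.50 for Timp1 and -5.29 and -5.29 for this Mmp14 probe. Differences by column were thus not confined to replicate 1.

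Timp1 and the brighter Mmp14 probe, both dimmer, had wider spot spread. For Timp1 the SD between spots was 0.18, 0.25, 0.12 and 0.28 on replicates 1 to 4, beside an SD of 0.26 between the array means. For the brighter Mmp14 probe it was 0.26, 0.27, 0.35 and 0.41. Mmp9, Mmp12 and Mmp19 were printed on 1 spot each and have no such average.

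None of the 5 detected members was called more variable than other genes with a similar signal. The SDs were 0.19 for Mmp9, 0.33 for Mmp12, 0.31 for Mmp19, 0.26 for Timp1 and 0.14 for Timp2. The prior SDs at their levels were 0.16, 0.25, 0.26, 0.28 and 0.19. The SDs of the 3 proteases, each from 1 spot per array, lay above the prior. Those of the inhibitors, each averaged over up to 10 spots, lay below it. The prior follows the level and not the number of spots, so kind of gene and number of spots cannot be told apart here. By limma's trended, robust prior variance all 5 had an adjusted p of 0.991 over 7570 genes, and 0 had an unadjusted p under 0.05. Of all 7570 genes tested, 27 were called at an adjusted p under 0.05 (0.357%) and 490 had an unadjusted p under 0.05 (6.47%). With 4 arrays this does not show that the 5 genes were equal in the 4 cultures. Culture and array cannot be told apart.

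**Figure D3:**
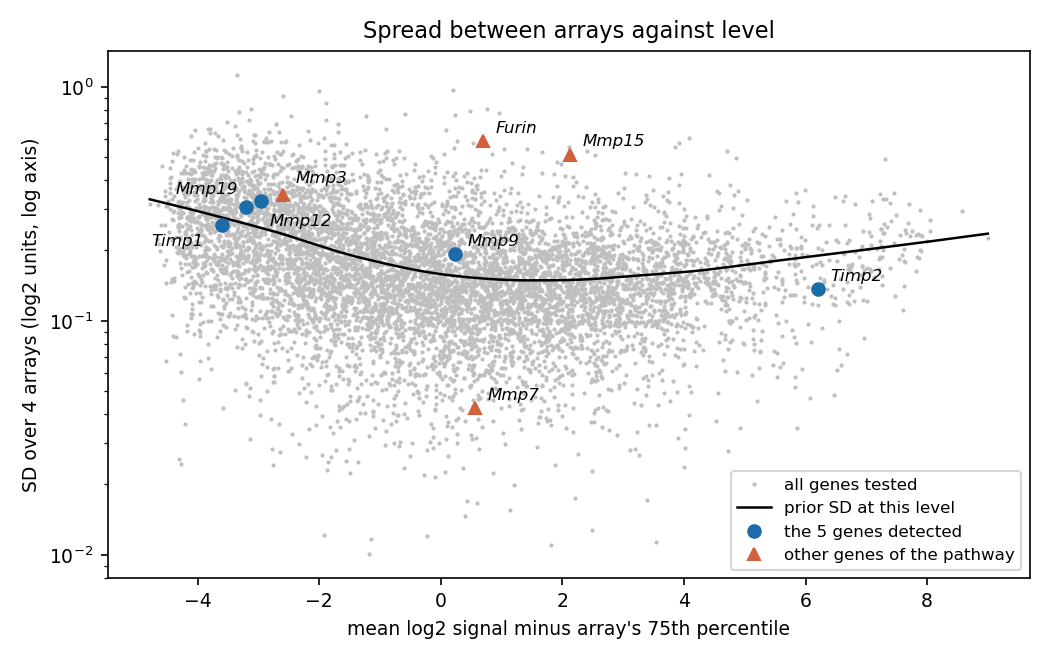
SD over the 4 arrays (y axis, log scale, in log2 units) against mean level (x axis) for the 7570 genes detected on all arrays in grey, with the prior SD at each level as a line. The 5 detected members (circles) lie near the line, while Mmp15 and Furin (triangles, with Mmp3 and Mmp7) lie above it and Mmp7 below it.

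On each array some detected members lay above their own mean and others below it. Whether they varied together was not tested, and none of them was called more variable than other genes with a similar signal. On replicate 1 Mmp19 and Timp1 lay 0.46 and 0.33 above their means, while Timp2 lay at -0.03. On replicate 3 Mmp12 lay 0.34 above its mean and Mmp9 lay at -0.28 from its own, where the median of all 7570 genes was -0.07. On replicate 2 Mmp12 deviated by -0.44 and Timp1 by -0.19.

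**Figure D4:**
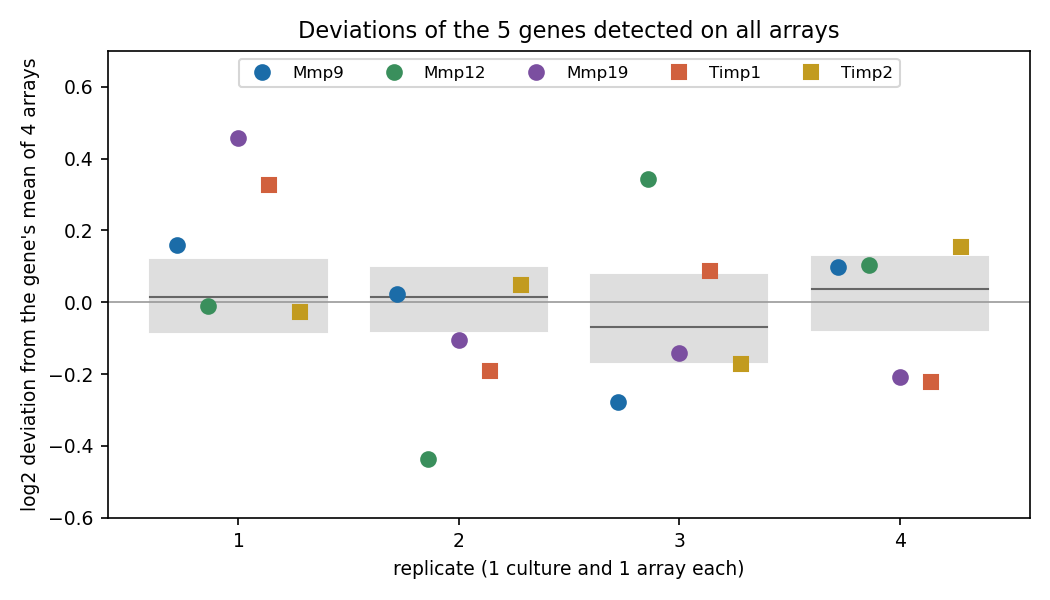
Deviation of Mmp9, Mmp12, Mmp19, Timp1 and Timp2 from their own mean of the 4 arrays (y axis, log2) on each replicate (x axis), with proteases as circles and inhibitors as squares. Grey boxes run from the lower to the upper quartile of all 7570 genes tested and the line in each is their median. Mmp19 and Timp1 are high on replicate 1, and Mmp12 is low on replicate 2 and high on replicate 3.

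Differences between a protease and an inhibitor within an array do not depend on a scaling that shifts all log2 levels of an array equally. Their size compares different probes and was not read, only how it moved between arrays. For Mmp9 minus Timp1 the deviations from the mean difference were -0.17, 0.21, -0.36 and 0.32 on replicates 1 to 4, an SD of 0.32. For Mmp12 minus Timp1 they were -0.34, -0.25, 0.26 and 0.33, an SD of 0.34. Replicate 4 thus had the highest value of both differences, while replicate 3 was lowest for Mmp9 and above the mean for Mmp12. Both differences subtract the same Timp1 levels, which lay at -0.22 from their mean on replicate 4, so they are not independent. With normexp and its offset, which narrows log2 differences between dim spots, the SDs of these differences were 0.15 and 0.12. After quantile normalization, which is not such an equal shift, they were 0.30 and 0.33. Mmp2, Mmp8, Mmp13 and Mmp14 gave no such difference because they were not detected on all arrays. The chosen pairs held no Mmp19, and Timp2 was paired with Mmp2 and Mmp14 alone.

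**Figure D5:**
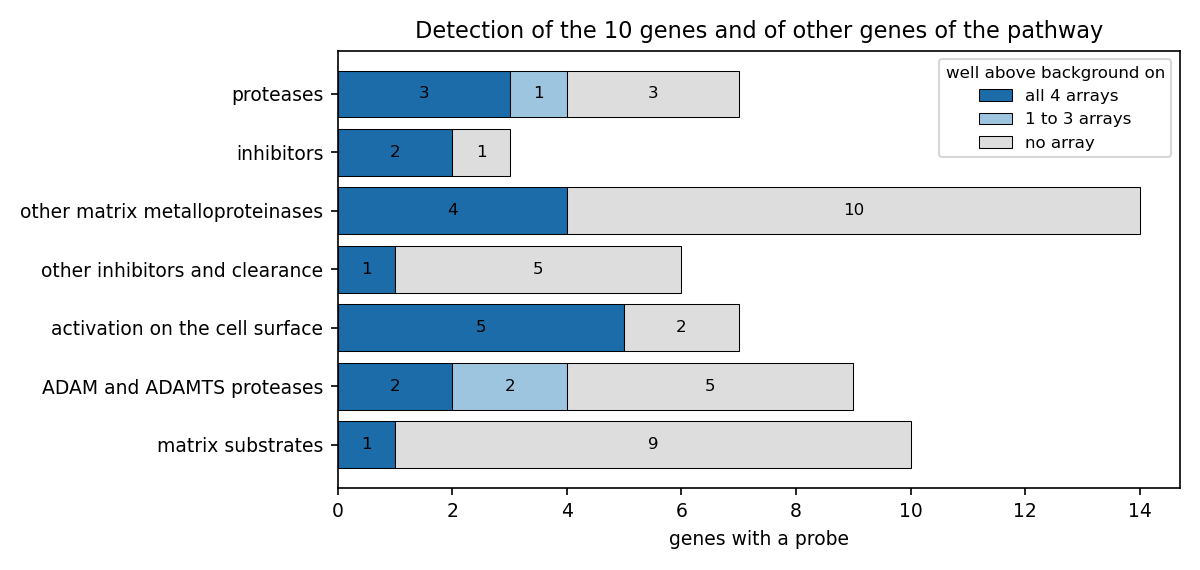
Number of genes with a probe (x axis) in 7 lists, split by detection on all 4 arrays (dark), on 1 to 3 arrays (light) or on none (grey). The lists for activation on the cell surface and for matrix substrates had 5 of 7 and 1 of 10 genes detected on all arrays. Of genes in general 45.7% were, and the difference between lists was not tested.

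The wider family was detected in part as well. Of 14 other metalloproteinase genes with a probe, 4 passed on every array, or 28.6% beside the 45.7% of genes in general, and 10 on none. Mmp7, matrilysin, lay at 0.63, 0.55, 0.53 and 0.55 on replicates 1 to 4. Its mean was 0.56 ± 0.04 (SD, n = 4), so its 4 arrays were nearly equal. Mmp15, a membrane enzyme like Mmp14, lay at 2.52, 2.48, 1.41 and 2.10, low on replicate 3, with a mean of 2.13 ± 0.51 (SD, n = 4). Its adjusted p by limma's prior variance was 0.0565, short of the threshold of 0.05, and it ran from 0.00200 to 0.936 over the alternatives, with 0.936 without replicate 3. Mmp15 passed the threshold when arrays were scaled to their detected probes' median, with normexp, and without replicate 1 or replicate 2.

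Mmp3, stromelysin, was detected on all 4 arrays by 1 of its probes, at -2.59 ± 0.34 (SD, n = 4), and on none by the other, at -6.33 ± 0.37. Mmp1 was not well above background. In the gene table of GRCr8, 10 metalloproteinase genes follow each other on chromosome 8 with 0 other protein-coding genes between them, in the order Mmp13, Mmp12, Mmp1b, Mmp3, Mmp1, Mmp10, Mmp8, Mmp27, Mmp20 and Mmp7. Of the 9 that were looked up here, Mmp12, Mmp3 and Mmp7 were detected on all 4 arrays and the other 6 on none. Of genes in general 45.7% were detected on all arrays. Between Mmp12 and Mmp3 lay only Mmp1b, which was not looked up. Mmp7 was parted from them by genes detected on no array.

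Of the genes for activation on the cell surface, 5 of 7 were detected on all arrays, or 71.4% beside the 45.7% of genes in general. Plaur, the receptor that holds urokinase on the membrane, lay at 0.20 ± 0.11 (SD, n = 4) by its brighter probe and at -0.20 ± 0.30 by the other, both detected on all arrays, whereas Plau, urokinase itself, and Plat, the tissue plasminogen activator, were not well above background. Furin, the protease that removes the propeptide of membrane metalloproteinases, lay at -0.17, 1.07, 0.81 and 1.05 on replicates 1 to 4. Its mean was 0.69 ± 0.59 (SD, n = 4), with replicate 1 far below the other three.

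Furin was the 1 gene of these lists that varied more than genes of like level (limma's prior variance, adjusted p = 0.0294 over 7570 genes). Without replicate 1 its SD was 0.14 and its adjusted p 0.986. The call was also lost without replicate 3 (adjusted p = 0.0666), without replicate 4 (0.114) and after quantile normalization (0.120). Its spot was in column 25, within columns 1 to 72, and the part of position in the value was not tested.

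Of 6 measured genes for other inhibitors and for clearance, 1 was detected on all arrays (16.7%, beside the same 45.7%). It was Lrp1, a receptor that takes up complexes of proteases and inhibitors, at -0.92 ± 0.15 (SD, n = 4). Timp4 and A2m, a broad protease trap of plasma, were not well above background. Of 9 ADAM and ADAMTS genes 2 were detected on all arrays (22.2%, also beside 45.7%). Adam17, the enzyme that sheds tumour necrosis factor, lay at -3.00 ± 0.27 (SD, n = 4), and Adam15 lay at 2.92 ± 0.21 by its brighter probe and at 1.61 ± 0.17 by the other. Adam10, another sheddase, passed on 3 arrays, and Adam9 on none.

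Matrix proteins that these enzymes cut were mostly not detected. Of 10 measured genes 1 was, or 10% beside the 45.7% of genes in general. It was Lamc1, a laminin chain, at -2.24 ± 0.12 (SD, n = 4). The elastin gene Eln, the fibronectin gene Fn1 and the osteopontin gene Spp1 passed on no array. The collagen genes Col1a1, Col1a2, Col3a1 and Col4a1 were not either.

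The label of the line was set against markers. All 8 macrophage markers were detected on all 4 arrays, and of 7 fibroblast and 5 epithelial markers 0 were. The fibroblast marker Thy1 and the epithelial marker Krt18 passed on 1 array each. Granulocyte markers, whose cells store Mmp8 and Mmp9, were detected in 3 of 7 cases (42.9%, close to the 45.7% of genes in general). They were Camp at 1.95 ± 0.19 (SD, n = 4), S100a8 at -1.61 ± 0.31 and Retn at 7.76 ± 0.24, while Elane, Ltf, Ngp and S100a9 passed on 0 arrays, as did Mmp8. Of 4 endothelial markers 3 were detected, Pecam1, Vwf and Cdh5, and Kdr was not. The part of other cell types in the levels of the 10 genes was not tested.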

How the data were processed

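Total RNA of 4 cultures gave 1 array each, all in 1 group by their titles and all on 1 slide, per the file headers. Spot signals are intensity values as the authors deposited them, with background subtracted and spatial trends removed by the scanner software and no scaling from one array to another, per the file headers. The software was Agilent Feature Extraction, version 11.0.1.1, per the submitters' processing notes. Median spot and background intensities and the spot flags come from the same files, per the file headers. No genome of the build named in the headers was used, so probes carry no coordinates. The 10 members, the lists and the tests were chosen with earlier results of these data known.

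Spots flagged as outliers were left out (634 to 669 of 58717 non-control spots per array). Signals were taken to log2 relative to the 75th percentile of the non-control spots of the same array, and spots of 1 probe were averaged. Of 45598 probes, 21109 got a gene symbol by matching the printed accession, its version left off, to RefSeq's gene table of GRCr8, and 24489 got none. The brightest probe stood for a gene, and a gene was detected where any 1 of its probes passed on all 4 arrays.

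To ask which genes varied more than others of similar signal, the variance of a gene (3 degrees of freedom) was set against limma's robust prior variance, which follows the level (limma 3.58.1 in R 4.3.3, 16.7 prior degrees of freedom). One-sided F test p-values were adjusted over 7570 genes (Benjamini-Hochberg), with calls at 0.05. The test was checked on simulated data. Beside the members, the text names the first 3 genes of each list that have a probe and the detected gene with the largest SD. It gives levels for those detected on all arrays. Levels are also given for detected granulocyte markers and for Mmp24, Plg, Hpse and Bsg, which were named after their values were seen. Background correction (normexp with offset 50 on median spot signals, as the files hold no mean signals), quantile normalization, another scale, flags, filters, probe choice and each replicate left out were alternatives. The number of arrays limits the precision.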

Additional observations from a re-analysis of the deposited data

Results flagged for a closer look

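Among the 14 genes detected on all arrays that the rule for named genes gives, 2 had 1 array that stood apart, with a gap to its neighbour that took more of the gene's range than Dixon's critical value for 4 samples at the 5% level. Mmp19 was higher on replicate 1, with a ratio of 0.843. Mmp7 was also higher on replicate 1, with a ratio of 0.853, but its whole range was 0.09 on the log2 scale. Camp, S100a8, Retn, Mmp24, Plg, Hpse and Bsg, also given with levels, had ratios of 0.182 to 0.747, below that value. Chance alone sets 1 array apart in about 5% of genes, and this held for 411 of all 7570 genes tested (5.43%).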

How the results depend on the processing

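The number of detected members, proteases and inhibitors was within 1.5 times its value under all 8 alternatives tried for each. It was 5 of 10 members under 6 of them, and 6 with the lenient flag or when 1 array sufficed, Mmp14 being added. The share of all 16579 genes rose too, to 55% by the lenient flag and 51.8% for detection on at least 1 array. Under the other 6 alternatives it was 45.7% to 46.6%. No member was called more variable under any of 12 alternatives (limma's prior variance). The number of all genes called, 27 of 7570, was not stable. Quantile normalization left 0 calls (492 unadjusted p-values under 0.05) and a prior with neither trend nor robust estimation also 0 (438 unadjusted), both of 7570 genes. It was 199 of 7570 with normexp on median spot signals, 135 of 16579 without a filter on dim genes and 10 of 4650 with spots beyond column 72 alone, an alternative chosen after seeing the data. Leaving out 1 replicate gave 8 (without replicate 3) to 84 (without replicate 2), with 9 without replicate 4. The causes were not tested. Scaling to the median of detected probes raised every level, Mmp9 to 0.95 for example, as the scale itself was lower. Mmp9 and Mmp19 have no spot beyond column 72 and gave no value there. No paired analysis was possible because there was 1 group. For Mmp14, near background, detection rests on which of its spots pass.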

Other observations

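Membrane metalloproteinases and plasminogen gave values that were picked here after they had been seen. Mmp24, a membrane enzyme known from nerve cells, was detected on all 4 arrays at -1.24, -0.91, -1.18 and -0.83 on replicates 1 to 4, a mean of -1.04 ± 0.20 (SD, n = 4). Plg, the plasminogen gene known for its expression in liver, was detected on all 4 arrays at -1.37 ± 0.19 (SD, n = 4), each time by 1 spot. The other membrane enzymes Mmp16 and Mmp17 passed on no array. Hpse, heparanase, and Bsg, the surface protein known as an inducer of metalloproteinases, were detected on all arrays at -3.21 ± 0.25 and 3.11 ± 0.12 (SD, n = 4).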
